A study of Mus musculus with 23 samples.

Results

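The 10 astrocyte genes described here were measured in Nedd8-KO and control hippocampal cultures: *Gfap*, *Aqp4*, *S100b*, *Aldh1l1*, *Gja1*, *Aldoc*, *Apoe*, *Clu*, *Sparcl1* and *Fabp7*. They were taken by name, through the GRCm39 annotation of the Ensembl identifiers, as 10 of the 56941 genes in the count tables, and all 10 were among the 14488 genes tested. *Gfap* stood for the reactive state, *Fabp7* for the immature state, and the other 8 for mature astrocytes. Hippocampi of P0 pups homozygous for the Nedd8cKO allele, in which loxP sites flank exons of *Nedd8*, were dissociated and grown as neuronal cultures. The cultures received lentivirus on day 1 in vitro, encoding RFP alone (RFP, the control) or RFP-tagged CRE recombinase (CRE, hence Nedd8-KO), and RNA was harvested on day 12 by the labels, whereas the study's methods give a later day. All RFP cultures carried the same floxed alleles and a virus. Both viruses used the Synapsin1 promoter, which is active in neurons, so any astrocytes in the dishes were not the cells in which CRE was meant to be expressed. Sex was not given in the labels.

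Astrocytes clear transmitter and potassium from around synapses, supply lipid and metabolites to neurons, and are joined into a network by gap junctions. They arise from radial glia, and *Fabp7*, a brain fatty acid carrier, is high in radial glia and young astrocytes. *Gfap* encodes the main intermediate filament of astrocytes and is the usual mark of reactive astrocytes. The levels measured here are bulk values, in which fewer astrocytes and less RNA per astrocyte cannot be told apart.

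The main comparison used 21 libraries, 11 CRE and 10 RFP, in which the counts assigned to genes summed to between 7430401 and 17112815. Levels are CPM values, the counts of a gene relative to the total of its library, scaled with TMM factors, and differences are log2 fold changes of CRE over RFP from edgeR's quasi-likelihood test, with a standard error (SE) and a Benjamini-Hochberg adjusted p over all 14488 genes, called at 0.05. The first number in a library name was taken to be that of its culture, of which there were then 3. Across genes, the deviations of CRE and RFP libraries of the same number correlated by only 0.04, 0.00 and 0.15. A culture shared by both conditions was thus not shown, and values within a culture match CRE and RFP libraries by number only. Neither the labels nor the methods say in words that the libraries of a culture came from separate dishes or animals. The study's legends give N = 3 for these data, with N defined as animals or biological replicates. The p-values take libraries rather than cultures as replicates, so they measure the spread between libraries, which may be partly technical. *Nedd8* itself was at 61.4 ± 10.2 CPM (SD, n = 10) in RFP and at 11.5 ± 3.49 (n = 11) in CRE libraries, and the conditions did not overlap. Of all genes tested, 16.4% were called higher and 13.8% lower in CRE, with a median log2 fold change of 0.02. Library CRE 1-3 (0.261% mitochondrial counts) and RFP 2-4 (3.43%) stood apart from the 6.997 to 11.1% of 20 libraries, and their levels followed the GC content of genes (Spearman correlation across genes of 0.73 and 0.47 against -0.20 to 0.20). CRE 3-3, with 1546796 counts and the same pattern, and RFP 3-2, with 24.2% of its counts on a ribosomal RNA gene, were left out of the main comparison.

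The 10 genes did not move as a block. *Clu* and *Gja1* were called higher in CRE libraries, *S100b*, *Aldh1l1*, *Aldoc* and *Fabp7* were called lower, and *Gfap*, *Aqp4*, *Apoe* and *Sparcl1* were not called. The 2 higher and 4 lower of 10 genes stand beside 16.4% higher and 13.8% lower of all genes. The median log2 fold change of the 10 genes was -0.43, against 0.02 over all genes. None reached the fold limit of the study, an absolute log2 fold change above 1.3. The study joins this limit to a -log10 p above 6 without saying whether the p is adjusted, and with the adjusted p 1.39% of all genes passed both in either direction. In the 19 libraries that also leave out CRE 1-3 and RFP 2-4, each of the 6 calls was made again in its direction, with adjusted p from 0.000573 for *S100b* to 0.034 for *Gja1*. With counts summed per culture, only *S100b* (adjusted p = 0.00195), *Fabp7* (0.00439) and *Clu* (0.0125) were called.

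**Figure D1:**
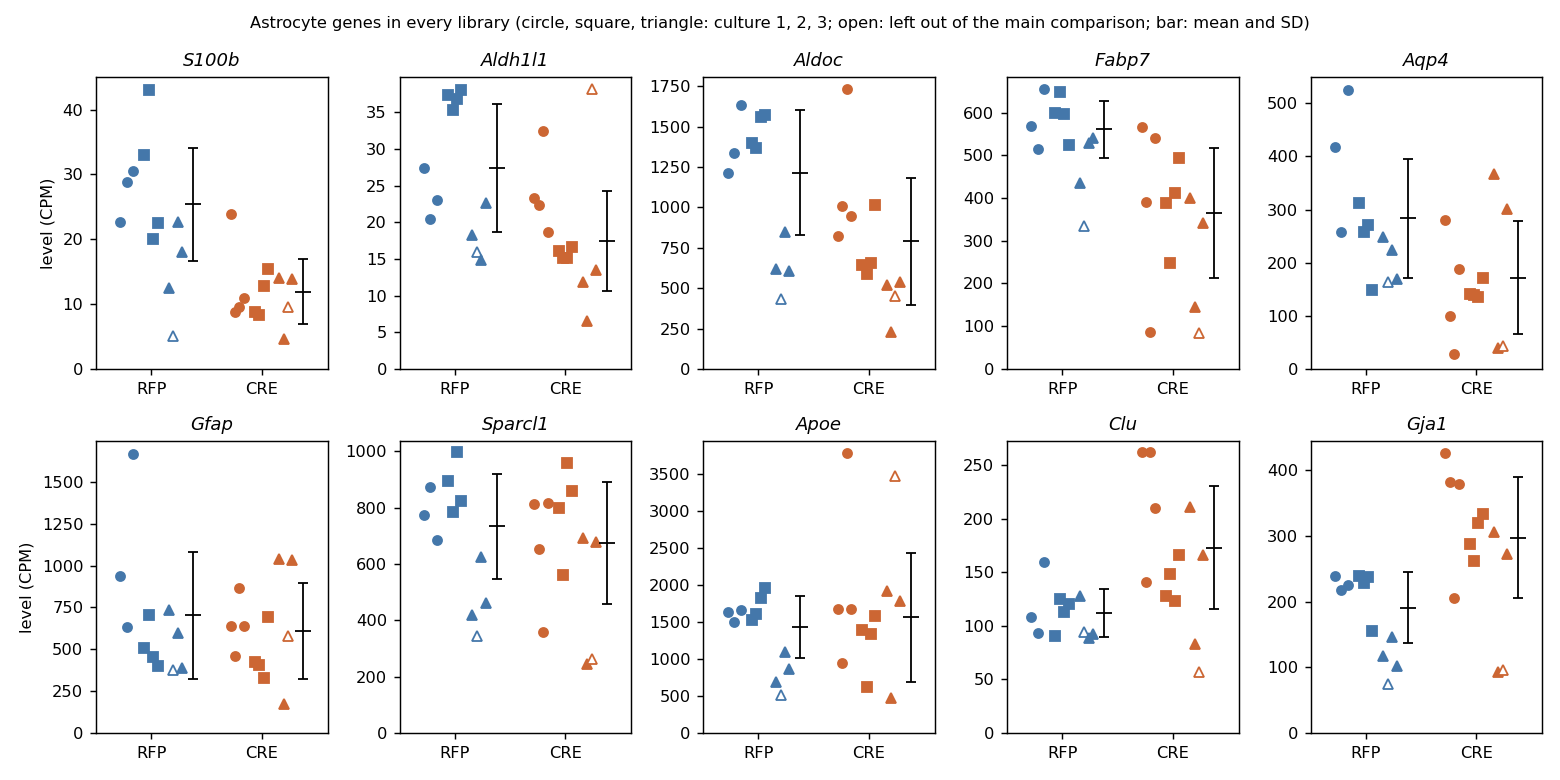
Level (CPM, linear axes from 0) of each gene in all 23 libraries, by condition. Circles, squares and triangles stand for cultures 1, 2 and 3, open symbols for CRE 3-3 and RFP 3-2, and the bar for the mean and SD of the filled symbols (10 RFP and 11 CRE). *Gja1* is above the filled RFP symbols in 9 of 11 CRE libraries, and *Fabp7* below them in 8 of 11.

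Promoter windows are shown for a member of each outcome, the uncalled *Gfap*, the lower *S100b* and *Fabp7* and the higher *Gja1*. Factors of the NFI, STAT and RBPJ sites searched are among the gliogenic transcription factors described below. AP-1 sites and antioxidant response elements were searched as well, and the levels of their factors are not described here. The windows hold the bases around the annotated start in RefSeq's GRCm38.p6 annotation, another build than the GRCm39 of the counts, and are written along the strand of the gene. Windows were matched for 7 of the 10 genes. Capitals mark the letters searched on both strands: TTGGC (NFI sites), TTCNNNGAA (STAT sites), TGGGAA (RBPJ sites), TGANTCA (AP-1 sites) and TGACNNNGC (antioxidant response elements). *Gfap* lies on chr11:102897151-102897450 (minus strand), *S100b* on chr10:76253586-76253885, *Fabp7* on chr10:57784673-57784972 and *Gja1* on chr10:56377050-56377349 (plus strand).
Gfap: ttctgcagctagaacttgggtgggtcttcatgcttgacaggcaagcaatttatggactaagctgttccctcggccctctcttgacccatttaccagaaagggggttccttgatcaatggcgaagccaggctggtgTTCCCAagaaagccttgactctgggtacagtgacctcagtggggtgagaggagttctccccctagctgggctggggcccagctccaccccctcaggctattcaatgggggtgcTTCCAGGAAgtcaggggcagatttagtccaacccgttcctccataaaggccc
S100b: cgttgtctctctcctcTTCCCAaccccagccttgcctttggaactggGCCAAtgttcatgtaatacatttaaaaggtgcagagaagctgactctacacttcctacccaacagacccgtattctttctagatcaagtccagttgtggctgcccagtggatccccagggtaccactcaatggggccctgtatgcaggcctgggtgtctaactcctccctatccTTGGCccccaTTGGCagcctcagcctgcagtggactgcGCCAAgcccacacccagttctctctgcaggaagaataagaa
Fabp7: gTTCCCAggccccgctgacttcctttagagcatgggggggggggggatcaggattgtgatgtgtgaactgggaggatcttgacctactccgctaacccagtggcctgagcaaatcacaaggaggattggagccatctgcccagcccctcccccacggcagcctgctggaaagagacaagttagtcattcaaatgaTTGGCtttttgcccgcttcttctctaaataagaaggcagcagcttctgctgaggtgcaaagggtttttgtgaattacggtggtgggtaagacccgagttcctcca
Gja1: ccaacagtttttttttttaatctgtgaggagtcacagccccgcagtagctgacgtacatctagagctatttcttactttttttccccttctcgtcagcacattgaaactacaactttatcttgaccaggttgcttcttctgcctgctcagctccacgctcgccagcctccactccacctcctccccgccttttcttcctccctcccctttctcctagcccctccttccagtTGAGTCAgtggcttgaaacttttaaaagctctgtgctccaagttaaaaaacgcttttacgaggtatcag

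The *Gfap* window held 1 STAT match, which begins 2 bases before the start, and 1 RBPJ match. As many as 4 NFI matches and 1 RBPJ match lay in the *S100b* window, and 1 of each in that of *Fabp7*. *Gja1* had a single AP-1 match, 19 bases before its start, and none of the other letters. Among 32851 promoter windows of the same length, NFI letters were found in 46.7%, RBPJ letters in 25.6%, antioxidant response elements in 12.4%, STAT letters in 8.3% and AP-1 letters in 7.8%. No antioxidant response element was found in the windows of the 7 genes. These matches describe letters only.

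*S100b*, which encodes a small calcium-binding protein secreted by astrocytes, had the largest change of the 10 genes. Its level ran from 12.5 to 43.1 CPM (median 22.7) in RFP libraries and from 4.61 to 23.8 (median 11.0) in CRE libraries. The RFP minimum lay above 6 of 11 CRE libraries and the RFP median above 10, CRE 1-1 at 23.8 being the exception. Its log2 fold change was -1.11 (SE 0.23, adjusted p = 0.000547), a level 2.16-fold lower in CRE. Without culture 2 it was -0.88 and no longer called (adjusted p = 0.0704). Within cultures 1, 2 and 3 the log2 ratio of the CRE to the RFP mean was -1.04, -1.39 and -0.71. The depth was low, with 45 to 429 counts per library. *S100b* is also expressed by cells of the oligodendrocyte lineage, and 7 of the 10 tested markers of that lineage were lower in CRE, with a summed level of 681 to 1988 CPM in RFP and 447 to 1981 in CRE libraries. Their part in the result was not tested.

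The folate enzyme *Aldh1l1*, a marker that labels most astrocytes, ran from 14.9 to 38.1 CPM (median 25.2) in RFP and from 6.56 to 32.4 (median 16.0) in CRE libraries. The RFP minimum lay above 3 CRE libraries and the RFP median above 10 of 11, with the exception of CRE 1-3. The log2 fold change was -0.68 (SE 0.22, adjusted p = 0.0199). The ratios were unlike across cultures: the RFP and CRE ranges of cultures 2 and 3 did not overlap, with ratios of -1.23 and -0.80, whereas in culture 1 the ratio was 0.04. The latter depends on CRE 1-3, without which *Aldh1l1* was at -0.17 in culture 1 in the fit over the 19 libraries. A test of the difference between cultures gave an unadjusted p of 0.00467 for *Aldh1l1*, the smallest of the 10 genes, and an adjusted p of 0.871. Without culture 2 the log2 fold change was -0.20 (adjusted p = 0.706), and over all 23 libraries, with CRE 3-3 at 38.2 CPM, it was -0.49 (adjusted p = 0.12). With counts summed per culture it was -0.70 (adjusted p = 0.156). In the annotation other genes overlap its exons on both strands, by up to 520 bases for a single gene.

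*Aldoc*, the brain aldolase of glycolysis, ran from 607 to 1637 CPM (median 1351) in RFP and from 232 to 1732 (median 655) in CRE libraries. The lowest RFP value lay above 4 CRE libraries, and CRE 1-3, at 1732 CPM, exceeded every RFP library. Its log2 fold change was -0.64 (SE 0.25), with an adjusted p of 0.049 at the edge of the threshold. The ranges did not overlap in cultures 2 and 3, where the ratios were -1.02 and -0.69, and overlapped in culture 1, where the ratio was -0.31. That overlap came from CRE 1-3 alone, since the other CRE libraries of culture 1 were at 823, 949 and 1008 CPM and its RFP libraries at 1216 to 1637, and *Aldoc* was at -0.62 in culture 1 in the fit over the 19 libraries. Without culture 2 the log2 fold change was -0.34 (adjusted p = 0.593), and 15 of the 21 fits that leave out 1 library lost the call, with adjusted p up to 0.0915 without RFP 2-4. Without both CRE 1-3 and RFP 2-4 the log2 fold change was -0.78 (adjusted p = 0.0207). With the culture number as a block in the fit it was -0.71 (adjusted p = 0.00179), and with counts summed per culture -0.75 (0.286).

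*Fabp7*, the gene of the immature state, had the tightest RFP values of the 10 genes, with a coefficient of variation of 11.9% against 41.8% in CRE libraries. RFP libraries ran from 435 to 654 CPM (median 554) and CRE libraries from 86.8 to 566 (median 392). Levels in 8 of 11 CRE libraries were below the RFP minimum, CRE 1-1, 1-4 and 2-4 being the exceptions. The log2 fold change was -0.64 (SE 0.22, adjusted p = 0.0258), and the ratios within the 3 cultures were -0.55, -0.62 and -0.76. The first of these rests on CRE 1-3: in the fit over the 19 libraries *Fabp7* was at -0.25 in culture 1, -0.69 in culture 2 and -0.77 in culture 3. Leaving out culture 2 or culture 3 ended the call (adjusted p = 0.234 and 0.0812) at log2 fold changes of -0.62 and -0.64. The low value of 86.8 CPM was in CRE 1-3, where genes of low GC content were low, and the exons of *Fabp7* have 42.7% GC. Over the 19 libraries *Fabp7* was at 565 ± 69.5 CPM (SD, n = 9) in RFP and 392 ± 128 (n = 10) in CRE, with 7 CRE libraries below the RFP minimum.

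*Gja1*, connexin 43 and the main gap junction channel of astrocytes, rose while these genes fell. It ran from 101 to 239 CPM (median 222) in RFP and from 92.9 to 427 (median 306) in CRE libraries. The RFP maximum was exceeded in 9 of 11 CRE libraries, CRE 1-3 lay at 206 CPM, and CRE 3-2, the lowest, was below all RFP libraries. With a log2 fold change of 0.62 (SE 0.20, adjusted p = 0.0199), *Gja1* had ratios of 0.62, 0.48 and 0.88 in the 3 cultures. Every CRE library of culture 2 lay above its RFP libraries, while culture 3 held the lowest values of both conditions, with RFP means of 122 ± 22.8 CPM (SD, n = 3) against 227 ± 10.4 (n = 3) in culture 1. The call was lost without culture 1 (adjusted p = 0.0994), without culture 2 (0.107), with counts summed per culture (0.134) and, among the single libraries, without CRE 1-1 (0.0541).

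*Clu*, the secreted chaperone clusterin, was the other gene that rose. RFP libraries ran from 89.1 to 160 CPM (median 110) and CRE libraries from 83.3 to 262 (median 166). The RFP maximum was exceeded in 6 CRE libraries and the RFP median in 10 of 11, all but CRE 3-2. The log2 fold change was 0.61 (SE 0.17, adjusted p = 0.00692), with ratios of 0.86, 0.33 and 0.58 in the 3 cultures, in each of which the ranges overlapped. None of the 21 fits without 1 library lost the call, and leaving out culture 1 did (adjusted p = 0.0526). Markers of mural cells and fibroblasts were at a summed level of 21.3 to 144 CPM in RFP and 72.5 to 349 in CRE libraries, with 2 of 6 tested markers higher. The mural marker *Rgs5* went from a mean of 25.3 to 147 CPM, while the fibroblast marker *Dcn*, not called, went from 25.9 to 12.4. Of the 6, 5 had a log2 fold change above 0. Such cells can express *Clu* and *Gja1* too. Their part in both results was not tested.

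**Figure D2:**
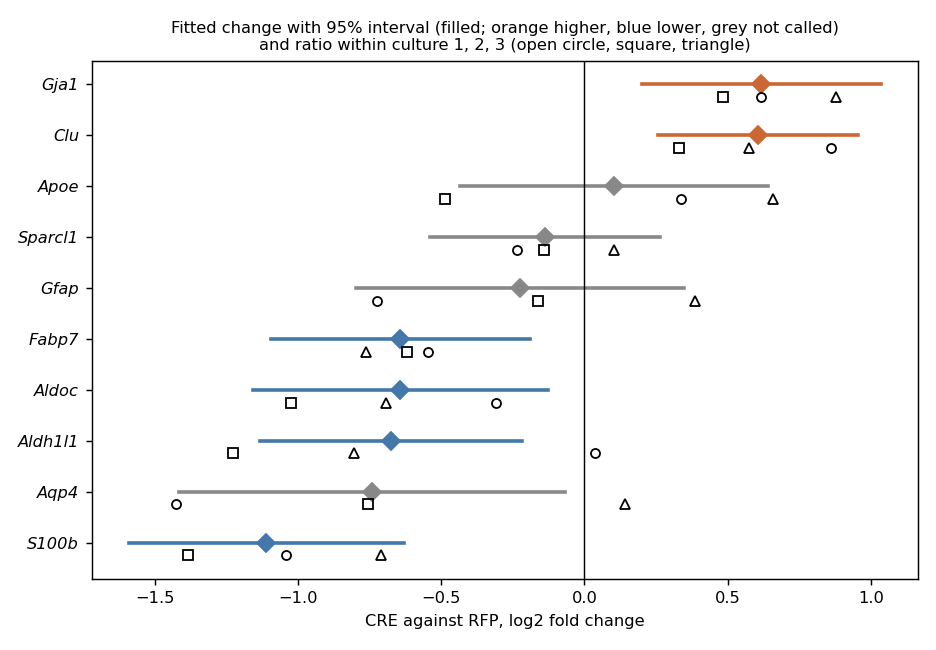
Log2 fold change of CRE over RFP for each gene, with its 95% interval from the edgeR fit (diamond and line; orange called higher, blue called lower, grey not called) and the log2 ratio of mean CPM within culture 1, 2 and 3 (open circle, square and triangle). CRE and RFP libraries were matched by culture number only. The 3 cultures lie on 1 side of 0 for *Gja1*, *Clu*, *Fabp7*, *Aldoc* and *S100b* and on both sides for *Apoe*, *Sparcl1*, *Gfap*, *Aldh1l1* and *Aqp4*, of which *Aldh1l1* was below 0 in every culture without CRE 1-3 and RFP 2-4.

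*Gfap*, the reactive marker, was not higher in Nedd8-KO cultures by this test. RFP libraries ran from 385 to 1668 CPM (median 616) and CRE libraries from 171 to 1042 (median 641). The RFP maximum was not reached in CRE, and 2 CRE libraries lay below the RFP minimum. Between conditions its log2 fold change was -0.22 (SE 0.27, adjusted p = 0.589), with a 95% interval from -0.80 to 0.35. The ratios within cultures were -0.73, -0.16 and 0.39. In culture 3 itself, CRE 3-1 and CRE 3-4 were at 1042 and 1032 CPM and CRE 3-2 at 171, so that the lowest and the highest CRE values came from the same culture. RFP 1-3, at 1668 CPM, was far above the other RFP libraries, and without it the log2 fold change was 0.01.

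*Aqp4*, the water channel of astrocyte endfeet, had the second largest change of the 10 genes without being called. It ran from 149 to 524 CPM (median 258) in RFP and from 27.8 to 366 (median 140) in CRE libraries. The RFP minimum lay above 6 CRE libraries, while CRE 3-1 and CRE 3-4, at 366 and 301 CPM, lay above the RFP libraries of the same culture number. The log2 fold change was -0.74 (SE 0.32, adjusted p = 0.0847), and the ratios within cultures were -1.43, -0.76 and 0.14. *Aqp4* was called lower with limma-voom (-0.97, adjusted p = 0.033), with each library's GC trend removed (-0.73, 0.0469) and without culture 3 (-1.13, 0.0162), and was at -0.35 (0.534) without culture 1. Its exons have 41.1% GC, the lowest of the 10 genes, and its lowest value, 27.8 CPM, was in CRE 1-3.

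*Apoe*, the main lipid carrier made by astrocytes, was among the most abundant of the genes and was not called. RFP libraries ran from 692 to 1960 CPM (median 1566) and CRE libraries from 478 to 3781 (median 1584). The CRE range enclosed the RFP range, and its top value came from CRE 1-3. Its log2 fold change was 0.10 (SE 0.26, adjusted p = 0.807), with a 95% interval from -0.43 to 0.64 and ratios of 0.34, -0.49 and 0.66 in the 3 cultures. Without CRE 1-3, in the fit over the 19 libraries, *Apoe* turned to -0.19 in culture 1. *Apoe* has the highest GC content of the 10 genes, 56.5%, and over the 19 libraries its means were 1376 ± 395 CPM (SD, n = 9) in RFP and 1341 ± 499 (n = 10) in CRE.

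*Sparcl1*, a secreted matricellular protein that promotes synapse formation, differed least after *Apoe*. It ran from 418 to 998 CPM (median 777) in RFP and from 243 to 958 (median 692) in CRE libraries. The log2 fold change was -0.14 (SE 0.19, adjusted p = 0.64), with a 95% interval from -0.54 to 0.26, and the culture ratios were -0.23, -0.14 and 0.10. The ranges overlapped in every culture. Opposite-strand genes overlap 578 bases of its exons, 521 of those of *Apoe* and 143 of those of *Gja1*, and the strand setting of the counting was not given in the sources used here.

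Mature markers were thus found on both sides, 2 of 8 higher and 3 lower with a median log2 fold change of -0.39, beside 16.4% higher and 13.8% lower of all genes. The reactive marker had -0.22 and the immature marker -0.64. The ratio of *Gfap* to *Aqp4* levels in CPM ran from 1.63 to 3.18 (median 2.56) in RFP and from 2.29 to 31.2 (median 3.41) in CRE libraries, the top value being CRE 1-3 and the next 4.65. The share of *Gfap* in the summed level of the 8 mature genes had a median of 16.2% in RFP and 14.8% in CRE libraries. The summed level itself ran from 2255 to 5053 CPM (median 4439) in RFP and from 1180 to 6410 (median 3758) in CRE libraries. All 3 measures overlapped between the conditions, and none was tested.

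Divided by the length of the merged exons, *Fabp7* had the highest RFP level, 438 ± 52.2 CPM per kb (SD, n = 10), followed by *Apoe* (354 ± 103) and *Aldoc* (260 ± 83.0). *Gfap* (123 ± 66.5) and *Sparcl1* (97.9 ± 25.0) came next and were in that order in only 6 of 10 RFP libraries. *Aqp4* followed at 43.2 ± 17.2, *Clu* at 19.9 ± 3.99, *Gja1* at 15.5 ± 4.43 and *S100b* at 12.7 ± 4.35 CPM per kb. *Aldh1l1* was lowest at 3.22 ± 1.03, and only its range did not overlap that of its neighbour. In CRE libraries *Apoe* (386 ± 216 CPM per kb, n = 11) came before *Fabp7* (285 ± 119) in 7 of 11 libraries. *Clu* (30.7 ± 10.2) came before *Aqp4* (26.2 ± 16.2) in 9 of 11. *Aqp4* and *Gja1* (24.1 ± 7.48) kept their order by mean, with *Aqp4* above *Gja1* in only 3 of 11 CRE libraries.

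Some libraries lay to a side in many of the 10 genes. CRE 3-2 was the lowest CRE library for 8 of the 10 genes. Over all 10 it lay between -2.11 (*Aqp4*) and -0.99 (*Clu*) on the log2 scale against the median of 9 other CRE libraries. CRE 1-3 was the highest for 4 genes and the lowest for 2. Against the median of the other CRE libraries, *Aldoc* was at 1.41, *Apoe* at 1.34 and *Aldh1l1* at 1.06 in CRE 1-3, all of them genes with over 50% GC, whereas *Aqp4* was at -2.49, *Fabp7* at -2.19, *Sparcl1* at -1.06 and *Gja1* at -0.60, the 4 genes with the lowest GC content. In CRE 3-3, left out of the main comparison, the same 4 genes were low, *Fabp7* at -2.25, *Aqp4* at -1.86, *Gja1* at -1.70 and *Sparcl1* at -1.51. The genes with over 50% GC were divided there, with *Aldh1l1* at 1.29 and *Apoe* at 1.22 but *Gfap* at 0.07, *Aldoc* at -0.52 and *Clu* at -1.47. RFP 3-2 was at -2.18 for *S100b* and -1.62 for *Aldoc* against the median of 9 RFP libraries. RFP 1-3 was the highest RFP library for 5 of the 10 genes.

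After each condition's mean was taken off, 43 of the 45 pairs of the genes had a Spearman correlation above 0 over the 21 libraries, with a median of 0.41. The closest pairs were *Aldh1l1* and *Aldoc* (0.77), *Gja1* and *Fabp7* (0.72), *Sparcl1* and *Fabp7* (0.71) and *Gfap* and *Clu* (0.70). *Gja1* and *Fabp7* thus went together from library to library within a condition, although the one was higher and the other lower in CRE. *Gfap* and *Sparcl1* (-0.07) and *Aqp4* and *Aldh1l1* (-0.03) did not go together. The order of the pairs changed over the 19 libraries, where the median was 0.56. *Aqp4* and *Apoe* were then closest (0.88, against 0.35 over 21), followed by *Gja1* and *Aldoc* (0.84) and *Gja1* and *Aldh1l1* (0.84), and *Aqp4* and *Aldh1l1* were at 0.27. The points share depth, culture and GC trend, so the correlations are descriptions.

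**Figure D3:**
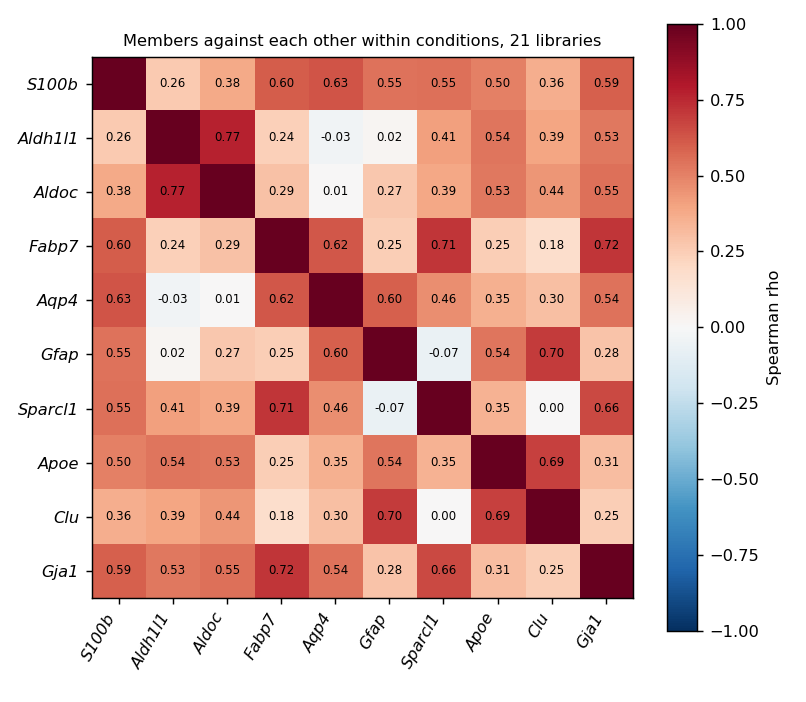
Spearman correlation (colour and number) between the levels of each pair of genes over 21 libraries, log2(CPM + 0.5) with the mean of each condition taken off. *Aldh1l1* and *Aldoc* stand out at 0.77, and *Gfap* and *Sparcl1* are at -0.07.

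By the same measure, the genes most like each member over the 21 libraries were in part other astrocyte genes. Most like *Aldh1l1* were *Hepacam* (0.90), *Fgfr3* (0.88) and *Aldh2* (0.87), and most like *Aldoc* were *Slc38a3* (0.94), *Gprc5b* (0.93) and *Fam20a* (0.90). *Apoe* was closest to *Plpp3* (0.92), *Sfxn5* (0.91) and *Dag1* (0.90), and *Gfap* to *Parp3* (0.92), *Plxnb2* (0.85) and *Slc39a4* (0.83). For *Aqp4* they were *Il17rd* (0.86), *Tspan2* (0.85) and *Gng12* (0.85), for *S100b* *Vcam1* (0.82), *Map4k4* (0.81) and *Gng12* (0.80), and for *Gja1* *Amot* (0.86), *Paqr8* (0.86) and *Fgfr2* (0.85). *Clu* was closest to *Serpinh1* (0.79), *Sgsh* (0.79) and *Dhrs4* (0.78), *Sparcl1* to *2810029C07Rik* (0.87), *Prkcb* (0.87) and *Baalc* (0.87), and *Fabp7* to *Ywhae* (0.90), *Scarb2* (0.89) and *Jam2* (0.88). Genes with a close course within conditions did not all have the call of their member between conditions: *Hepacam* (0.32, adjusted p = 0.153) and *Fgfr3* (0.00, 0.992) were not called where *Aldh1l1* was lower, and *Aldh2*, a mitochondrial aldehyde dehydrogenase, was higher by 2.00 (adjusted p = 7.57e-07).

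A wider list of 30 mature astrocyte genes, none of them among the 10, held genes of both directions, with 7 higher, 8 lower and a median log2 fold change of 0.14. The counts of this and every later list stand beside 16.4% higher and 13.8% lower of all genes. Higher were *Pla2g7*, which breaks down platelet-activating factor (mean level from 120 to 558 CPM), and, with their log2 fold changes, the thyroid hormone transporter *Slco1c1* (1.54), *Dio2*, which activates thyroid hormone (1.40), and the transcription factor *Sox9* (1.02). Lower were the GABA transporter *Slc6a11* (-1.97), the receptor gene *Gpr37l1* (-1.54), *Ttyh1* (-1.40) and *Slc1a2*, the main glutamate transporter (-0.79). The summed level of the list ran from 5886 to 10729 CPM in RFP and from 3726 to 10864 in CRE libraries. Over all 23 libraries 9 genes of the list were higher and 5 lower.

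Unlike *Gfap*, most of the tested genes of a list of 36 reactive astrocyte genes were higher. Of 28 tested genes, 20 were higher, 1 was lower and the median log2 fold change was 1.59. The oncostatin M receptor *Osmr* (3.62), *Tm4sf1* (3.30), the sphingosine kinase *Sphk1* (2.49) and the hyaluronan receptor *Cd44* (1.67) were the higher genes with the smallest p, and *Fkbp5*, a co-chaperone of steroid receptors, was the lower one (-0.63). Of the 20 higher genes, 8 had a mean under 1 CPM in RFP libraries, and 8 listed genes were too low to be tested. Genes so low in RFP may have passed the filter on low counts only through their CRE libraries. The count of 20 and the median of 1.59 thus lean towards higher genes. The summed level ran from 269 to 534 CPM in RFP and from 518 to 1368 in CRE libraries, and 20 were higher in the 19 libraries as well. Many of these genes are also expressed by mural cells, fibroblasts and stressed neurons. Of the marker lists, *Rgs5* (2.52) and *Pdgfrb* (0.81), of mural cells, were higher in CRE, and their part in these results was not tested.

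Genes listed with the intermediate filament network, linkers as well as filaments, were mostly called higher, which *Gfap* was not, and the difference between them was not tested. Of 6 tested genes of the intermediate filament network, 5 were higher and 1 lower, with a median of 0.68. *Nes*, nestin of neural progenitors, went from 126 to 977 CPM (log2 fold change 2.93) and *Vim*, vimentin, from 177 to 470 (1.39). The linker *Plec* (0.64) was higher, as was *Flna* (0.63), an actin cross-linker rather than an intermediate filament gene. *Synm*, synemin, which forms filaments with vimentin and GFAP, was lower (-1.31). The summed level of the list, 590 to 910 CPM in RFP and 1534 to 3539 in CRE libraries, did not overlap. *Vim* is also among the reactive astrocyte genes and *Nes* among the genes of radial glia described next. The counts and summed levels of these lists are thus not separate results.

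*Fabp7* did not fall with all genes of radial glia and young astrocytes. Of 18 tested, 4 were higher and 4 lower, with a median log2 fold change of -0.06. Next to *Nes*, the matrix protein *Tnc* (1.69) and the transcription factors *Pax6* (1.38) and *Gli3* (1.24) were higher. *Hes5*, a target of Notch signalling (-3.27), *Ptprz1* (-0.77) and *Lrrn1* (-0.46) were among the lower ones. In the 19 libraries 5 were higher and 8 lower.

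Among 12 transcription factors of gliogenesis, 3 were higher and 3 lower, with a median log2 fold change of 0.01. *Stat3*, which acts on *Gfap* in astrocyte formation, was higher by 1.11 on the log2 scale (82.3 to 180 CPM), as were *Rbpj* (0.63) and *Smad1* (0.55). *Sox8* (-1.48), *Zbtb20* (-0.58) and *Nfix* (-0.51) were lower.

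Neighbours of the other members by function also held calls of both directions, as did all genes at 16.4% higher and 13.8% lower. Of 10 connexin and junction genes 5 were tested. *Gjb6*, connexin 30 and the partner of *Gja1* in astrocytes, was higher (2.00) at a low mean level, 1.56 CPM in RFP and 6.36 in CRE libraries. The junction scaffold *Tjp1* was higher too (0.67). *Gjc3*, a connexin of oligodendrocytes, was lower (-2.42), going from a mean of 3.87 to 0.715 CPM. Of 13 tested genes of lipoprotein and cholesterol export around *Apoe* and *Clu*, 3 were higher (*Pltp* 2.12, *Rxra* 0.56 and *Lrp1* 0.41) and 2 lower (*Lcat* -1.33 and *Abcg4* -0.41), with a median of 0.32. *Pltp* was low, at a mean of 2.09 CPM in RFP and 9.17 in CRE libraries. Of 10 tested matricellular and synaptogenic proteins related to *Sparcl1*, 5 were higher, among them *Thbs2* (3.53), *Sparc* (1.85) and the glypicans *Gpc6* (1.65) and *Gpc4* (1.58), and 2 lower, the neurocan gene *Ncan* (-1.25) and *Smoc1* (-1.31), with a median of 1.10.

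**Figure D4:**
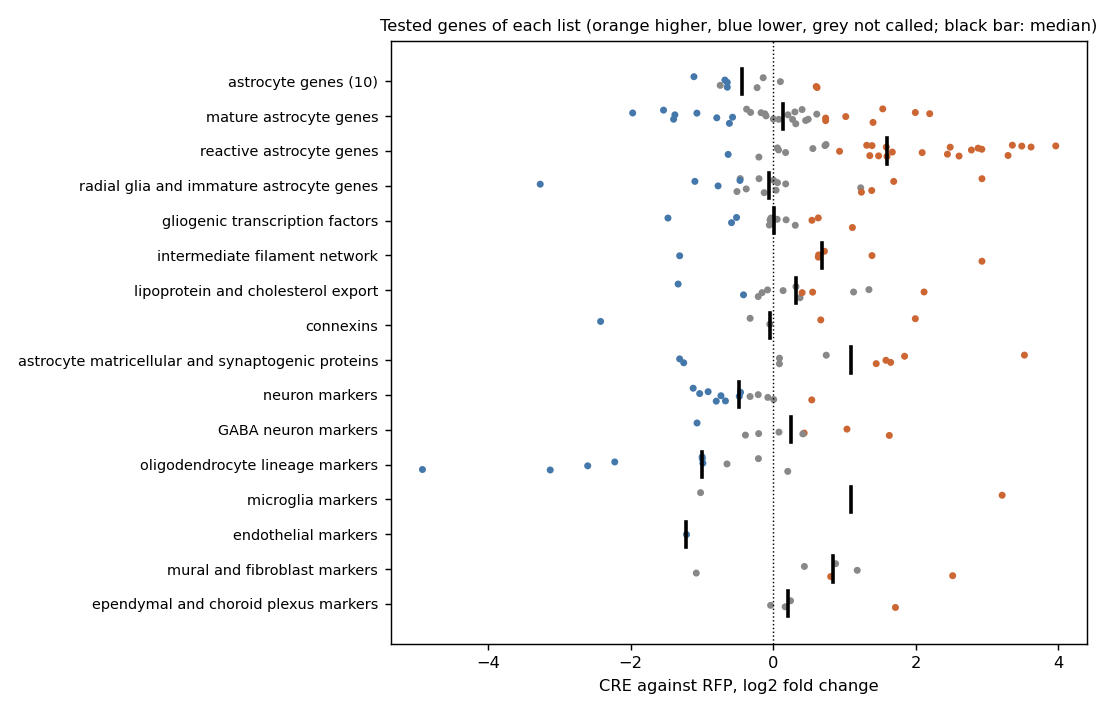
Log2 fold change of CRE over RFP for the tested genes of each list (points; orange called higher, blue called lower, grey not called; vertical position within a row is arbitrary) and the median of the list (black bar). The 10 genes have a median of -0.43 and the reactive astrocyte genes of 1.59. The latter includes 8 higher genes with a mean under 1 CPM in RFP, which may have been tested only through their CRE level.

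Markers of the other cells of the cultures give the setting of these values. Neuron markers were lower in 8 of 13 cases and higher in 1 (*Nefm*, 0.54), with a median log2 fold change of -0.47 and *Dcx* (-1.12), *Rbfox3* (-1.03), *Syt1* (-0.91) and *Stmn2* (-0.80) among the lower ones. *Elavl3* (-0.07) and *Elavl4* (0.01) were among the 4 neuron markers not called. The summed level of the neuron markers ran from 7716 to 9052 CPM in RFP and from 4223 to 7621 in CRE libraries, without overlap, and since CPM is a share of all counts, its part in the higher genes was not tested. Of 8 markers of GABA neurons, *Npy* (1.63), *Dlx5* (1.04) and *Slc32a1* (0.44) were higher and *Sst* (-1.07) lower. The other 4 were not called, among them *Gad1* (-0.20, adjusted p = 0.455) and *Gad2* (-0.39, 0.162). Oligodendrocyte lineage markers had a median of -0.99, with *Enpp6* (-4.92), *Cspg4* (-2.22) and *Cnp* (-0.99) lower, *Olig2* going from 186 to 94.8 CPM, and none of the 10 tested higher. Microglia markers summed to 1.09 to 6.64 CPM in RFP and 0.256 to 8.06 in CRE libraries, and 9 of 11, *Cx3cr1*, *Aif1* and *Trem2* among them, were too low to be tested, whereas *Tmem119* was higher (3.21) at a mean of 0.193 CPM in RFP. Endothelial markers summed to 2.75 to 9.85 and 1.09 to 10.2 CPM, with *Cldn5* never above 3 counts and *Kdr* lower (-1.22). Of 4 tested ependymal and choroid plexus markers, *Rarres2* was higher (1.72) at a mean of 0.551 CPM in RFP.

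The difference between CRE and RFP libraries was also compared between the 3 culture numbers. None of the 10 genes had an interaction of condition and culture at an adjusted p under 0.05, beside 0.0069% of all genes, and at an unadjusted p under 0.05 *Aldh1l1* was the only member, beside 595 of 14488 genes. Without a filter on low counts *Aqp4* passed (adjusted p = 0.0248), with fitted log2 fold changes of -1.43, -0.76 and 0.13 in cultures 1, 2 and 3.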

How the data were processed

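RNA of primary hippocampal cultures from Nedd8cKO mice, infected with RFP or CRE lentivirus, was sequenced in 23 libraries (12 CRE, 11 RFP). The submitters' processing notes name bcl2fastq 2.20.0.422, STAR 2.7.8a, featureCounts 1.5.0-p1 and GRCm39. The authors deposited whole-number read counts per Ensembl gene for each library, without normalization. How reads with several matches were counted is not given in the sources used here.

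Identifiers were named with the GENCODE annotation of GRCm39, which held 56323 of 56941. The main comparison covers the 21 libraries of the study's own count table, without CRE 3-3 and RFP 3-2. The study's methods name CRE 1-3 and CRE 3-3 as removed instead, which is an alternative. Counts were filtered with filterByExpr, scaled with TMM factors and compared by condition with a robust glmQLFit and glmQLFTest in edgeR 4.0.16 (R 4.3.3), with two-sided p-values adjusted by Benjamini-Hochberg. CPM used 1 set of TMM factors over all 23 libraries, and levels between genes were compared per kb of merged exons. Total counts were 7430401 to 13345552 in CRE (median 11082822) and 9833872 to 17112815 in RFP libraries (median 11569226). DESeq2 1.42.0 and limma 3.58.1 were alternatives. In all, 37 alternatives were fitted, 24 of which leave out 1 library or 1 culture.

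The 10 genes, the 15 gene lists and the rules were chosen with earlier results of these data known. The lists come from general knowledge of these cells. Named are all 10 genes, up to 4 higher and 4 lower genes of each list by smallest p, some markers not called, such as those at or near 0, the 3 genes most like each member, and *Nedd8*. A gene that this rule takes is not reported here. Levels in single libraries were compared by their ranges, with no test. The fit was tested on simulated counts. Libraries of a condition were compared in pairs, and none of 121 pairs agreed within sampling noise. Figures and other values came from numpy 2.4.6, pandas 2.3.3 and matplotlib 3.10.9.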

Additional observations from a re-analysis of the deposited data

Results flagged for a closer look

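*Gfap* in RFP 1-3, at 1668 CPM, was far from the other 9 RFP libraries of the main comparison: its gap to the nearest of them was 0.57 of the whole range of the group, above Dixon's 95% critical value for 10 libraries. The 10 genes were examined in the RFP group alone, since the CRE group is larger than the criterion covers, and chance marks about 1 in 20 groups. In the same library *Aqp4* was at 524 CPM, *Aldoc* at 1637, *Fabp7* at 654 and *Clu* at 160, the highest RFP value of each. Without it the log2 fold change of *Gfap* went from -0.22 to 0.01 (adjusted p = 0.977).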

How the results depend on the processing

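No member changed side among called values: of 370 fits of the 10 genes under the 37 alternatives, 329 kept direction and side of the threshold or remained uncalled, 34 lost a call, 22 of them of *Aldoc*, and 7 gained one, all of *Aqp4*. The uncalled log2 fold changes of *Gfap*, *Apoe* and *Sparcl1* crossed 0 in some. The main count of 2 members higher became 1 with counts summed per culture, where *Gja1* lost the call (adjusted p = 0.134), and ranged from 0 (without culture 1) to 2 when a library or culture was left out. It was 1 without culture 2 and without CRE 1-1. The main count of 4 lower became 2 with no filter on low counts (*Aldoc* 0.0975 and *Fabp7* 0.0561), 2 over all 23 libraries (*Aldoc* 0.089 and *Aldh1l1* 0.12) and 2 with summed counts (*Aldoc* 0.286 and *Aldh1l1* 0.156), and ranged from 0 to 4 when a library or culture was left out, 0 being without culture 2, where *S100b* had 0.0704. Members with an interaction went from 0 to 1 without the filter. The causes were not tested. Over all genes, 2374 were higher and 1996 lower, 2949 and 1533 with library totals alone, 4367 and 2553 without the filter, and 1311 and 803 without culture 2.

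Pairing of the libraries by number was not shown: deviations of CRE and RFP libraries of the same culture number correlated by 0.04, 0.00 and 0.15 across genes. Only culture 3 correlated best with its own number. A correlation over all genes cannot exclude a culture effect on single genes. With the culture number as a replicate block, 2 members were higher and 4 lower, as without it. Adjusted p was then smaller for *Aldoc* (0.00179 instead of 0.049), *Aldh1l1* (0.00352 instead of 0.0199) and *Gja1* (0.00571 instead of 0.0199). It was larger for *S100b* (0.000669 instead of 0.000547) and *Clu* (0.00923 instead of 0.00692). With the library number as a replicate block there were 2 and 3, *Aldoc* being at 0.0567.

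Some list counts moved by over 1.5 times. Lower genes of radial glia were 8 in the 19 libraries and 7 with the GC trend removed instead of 4, and lower mature astrocyte genes 5 over 23 libraries instead of 8. Higher gliogenic factors were 5 with library totals alone instead of 3. GABA neuron markers were 1 higher and 2 lower in the 19 libraries instead of 3 and 1. With summed counts, connexins were 1 higher and 0 lower instead of 2 and 1. Depth limits *S100b* and *Aldh1l1* most, with minima of 45 and 64 counts per library.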
